A study of Mus musculus with 12 samples.

Results

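The cluster of miR-143 and miR-145a is a pair of microRNA (miRNA) hairpins that lie beside each other in the genome and are cut from the same primary transcript. Its 4 mature miRNAs, mmu-miR-143-3p, mmu-miR-143-5p, mmu-miR-145a-5p and mmu-miR-145a-3p, were taken by name from a table of 1900 mature miRNAs as the named products of both hairpins. The table came from small RNA libraries of gastrocnemius muscle, the large calf muscle, of male C57BL/6 mice. There were 6 libraries from 6-month-old (young) and 6 from 24-month-old (aged) animals, and no transgene or treatment was named for either age. Levels are in FPKM, in which the reads of a miRNA are divided by its mature length and by the depth of its library. All 4 members were above 0 in all 12 libraries and were among the 482 miRNAs that were tested, those above 0 in at least 5 libraries.

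In the mm10 assembly both hairpins lie on the minus strand of chromosome 18. Mir143 occupies 61649196 to 61649258 and Mir145a occupies 61647825 to 61647894, with 1301 bases between them. RefSeq places both inside the long non-coding gene Carmn (61645878 to 61665538), whereas the GENCODE M21 model of Carmn (61649625 to 61665537) ends short of them. In GENCODE 0 exons of other genes overlie either hairpin. A paralog of miR-145a, Mir145b, lies elsewhere on the same chromosome (69022199 to 69022273). Its mature miR-145b had at most 2 reads in any library and was above 0 in 5 of them, with 1 read over all young and 7 over all aged libraries.

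A miRNA hairpin is cut into a short duplex, of which 1 strand, from the 5′ (5p) or the 3′ (3p) arm, is usually kept in the silencing complex while the other is mostly degraded. The strand that is kept pairs with target messenger RNAs through its seed, the bases near its 5′ end. miR-143 and miR-145a are known as abundant miRNAs of smooth muscle, transcribed under serum response factor and myocardin. They favour the contractile state of smooth muscle cells through targets such as Klf4, Klf5 and Elk1, and in a limb muscle they are usually traced to vessel walls and other mesenchymal cells rather than to the muscle fibres. In whole muscle RNA, fewer cells of a type and less RNA per cell cannot be told apart.

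Depth differed between libraries and partly between ages. The estimated mapped reads, recovered from the steps of whole reads in the lowest values, ran from 120185 to 7750249. Of the young libraries 5 held 212197 to 609780 reads and replicate 6 held 6539801. Of the aged libraries 4 held 1228289 to 1664803 reads, replicate 3 held 7750249 and replicate 5 held 120185. Among the skeletal muscle miRNAs, miR-1a-3p and miR-133a-3p, which fibres make in large amounts, were at 164190 FPKM or more and at 4223478 FPKM or more in every library. The median log2 change over all 482 tested miRNAs was 0.07 (aged minus young).

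The 4 members covered a wide range of levels. miR-143-3p, the kept strand of its hairpin, ranked 3rd of all miRNAs by mean FPKM in young and 2nd in aged muscle, and made up 99.5% ± 0.0849 (SD, n = 6) of the FPKM of the 4 members in young muscle. It took 11.5% ± 1.94 (SD, n = 6) of the summed FPKM of young libraries and 12.4% ± 0.778 (SD, n = 6) of that of aged ones. These shares depend on the sum, which holds both miR-486 and its opposite-strand copy miR-3107. The 4 members together took 11.6% in young and 12.5% in aged libraries. With the rows of miR-3107 left out of the sum they took 13.2% and 14.4%. miR-145a-5p, which is usually described as the kept strand of its hairpin, averaged 12828 ± 2461 FPKM (SD, n = 6) in young muscle and ranked 72nd. Its partner miR-145a-3p averaged 12270 ± 4502 FPKM (SD, n = 6) and ranked 74th, a difference well inside the spread between libraries. The rarest member was miR-143-5p, at 1256 ± 391 FPKM (SD, n = 6) and rank 158. In aged muscle the order of the last 3 was miR-145a-3p (14499 ± 2162 FPKM, SD, n = 6, rank 68), miR-145a-5p (9403 ± 758 FPKM, rank 78) and miR-143-5p (556 ± 127 FPKM, rank 203). On the scale of log2(FPKM + 48.2), miR-143-3p stood 383-fold above miR-145a-5p in young and 578-fold above it in aged muscle. Both hairpins share a primary transcript, but these folds compare different sequences, and how well each sequence enters a library was not measured.

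The members also differed in how steady they were. The SD of the log2 level within an age was 0.19 for miR-143-3p and 0.20 for miR-145a-5p, against a median of 0.33 over the 216 miRNAs above 0 in every library. Of those 216, 11.1% varied less than miR-143-3p and 14.8% less than miR-145a-5p. The within-age SD was 0.36 for miR-143-5p and 0.40 for miR-145a-3p, near the middle of the 216. Such an SD also depends on read number, and the 216 were not matched on level. Reads per library ran from 16125 to 1011377 for miR-143-3p and from 22 to 1774 for miR-145a-5p. They ran from 37 to 2365 for miR-145a-3p and from 1 to 130 for miR-143-5p.

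The comparison of aged with young muscle asked which miRNAs change with age. By limma with Benjamini-Hochberg adjustment over the 482 miRNAs, 1 of the 4 members, miR-143-5p, had an adjusted p under 0.05. Over all tested miRNAs 2.9% were called in either direction and 2.28% as lower in aged muscle. Both 5p strands had lower means in aged muscle and both 3p strands had higher ones, but of these 4 differences only the one in miR-143-5p passed the test.

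**Figure D1:**
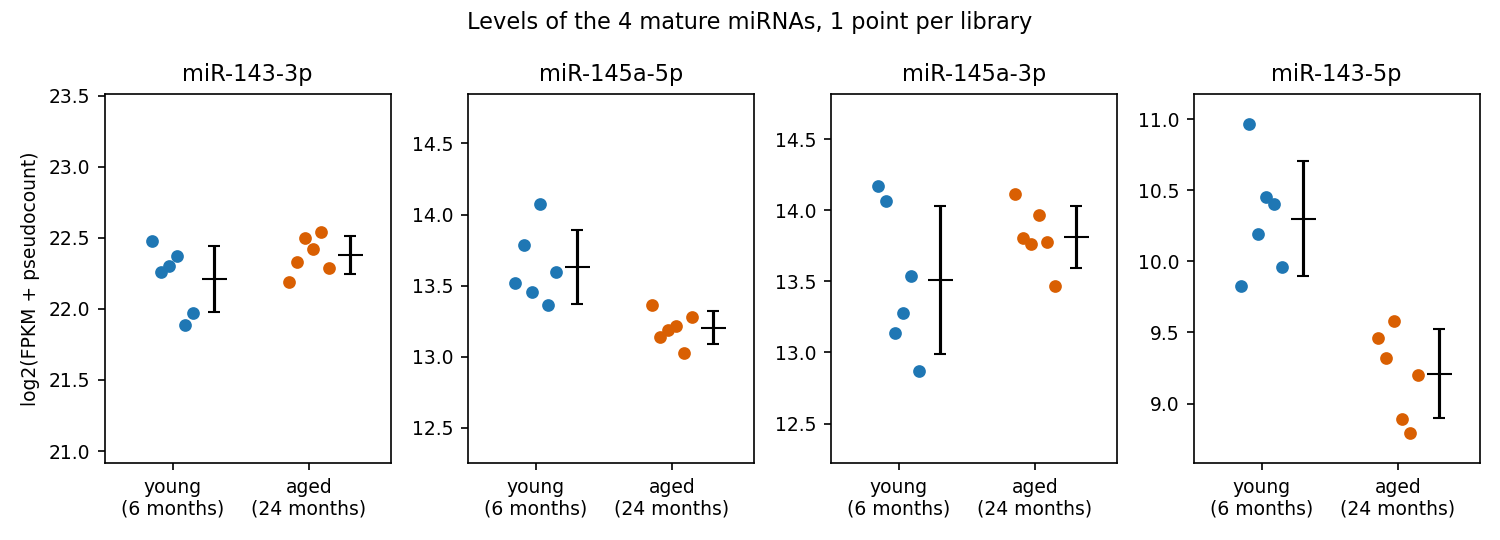
Levels of the 4 mature miRNAs as log2(FPKM + 48.2), 1 point per library, young in blue and aged in orange, with mean and SD (n = 6 per age) as black bars. Each panel spans the same number of log2 units around its own centre, so the distances can be compared but not the heights. The aged points of miR-143-5p lie below all young points, those of miR-145a-5p touch the lowest young point, and the ages overlap for both 3p strands.

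miR-143-5p, the strand of miR-143 that is mostly degraded, ran from 861 FPKM over a median of 1213 to 1951 FPKM in young libraries. In aged libraries it ran from 396 over a median of 567 to 719 FPKM. Every aged library lay below every young one, a separation in that direction found for 2.28% of the 482 miRNAs. miR-143-5p fell by 1.09 on the log2 scale (SE 0.30, 95% interval -1.71 to -0.47), a level 2.13-fold lower in aged muscle, with a limma adjusted p of 0.0497. This call sat at the threshold. It held when young replicate 1 or young replicate 6 was left out and was lost when any other library was (limma adjusted p from 0.0490 to 0.169 over the 12 fits, log2 change from -1.18 to -0.96). The study had selected miR-143-5p on these same libraries, so its fall is not independent evidence of that direction.

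Few reads stood behind these values. In steps of whole reads, young replicates 1 to 6 had 11, 19, 7, 6, 12 and 130 reads of miR-143-5p, and aged replicates 1 to 6 had 23, 17, 117, 11, 1 and 15. Aged replicate 5 thus rested on 1 read, with an exact Poisson 95% interval of 0.211 to 46.4 reads per 1000000 mapped reads (RPM). The young libraries ran from 18.04 to 40.8 RPM and the aged ones from 8.32 to 15.1 RPM. The deepest library of each age, which is known best, gave 19.9 RPM (exact Poisson 95% interval 16.6 to 23.6) in young and 15.1 (12.5 to 18.1) in aged muscle. These intervals cover counting error only. They overlap, but overlap is no test of the difference, and a single library per age leaves the spread between mice unmeasured.

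Pooling the reads gave a smaller difference. When the reads of each age were summed, which was added once the values had been seen, the rate was 21.6 RPM (exact Poisson 95% interval 18.6 to 24.95) from 185 young reads and 13.7 RPM (11.8 to 15.8) from 184 aged reads. This is a log2 change of -0.66. It was -0.40 between the deepest libraries and -1.21 in the pools without them, from 27.2 to 11.7 RPM. With depth as a covariate the log2 change was -1.12 and the limma adjusted p 0.0753.

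**Figure D2:**
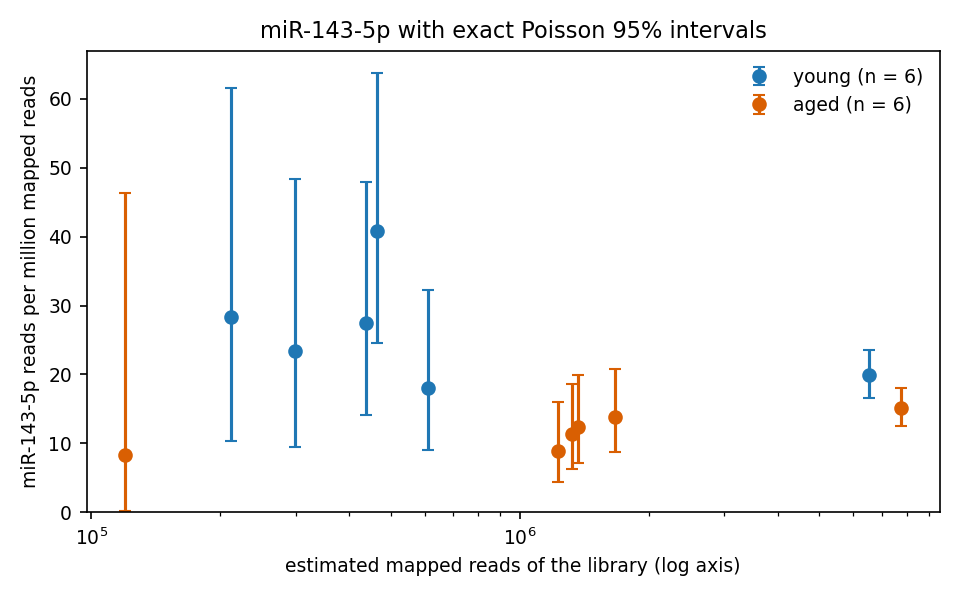
Level of miR-143-5p in RPM (vertical axis, from 0) against the estimated mapped reads of each library (log axis), with exact Poisson 95% intervals for counting error, young in blue and aged in orange. The aged libraries lie at 8.32 to 15.1 and the young ones at 18.04 to 40.8, with wide intervals in the shallow libraries and a smaller gap between the deepest pair.

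miR-145a-5p, which targets Klf4 and Klf5, ran from 10514 over a median of 11998 to 17199 FPKM in young libraries. In aged libraries it ran from 8306 over a median of 9378 to 10514 FPKM. Of the aged libraries 5 lay below the lowest young one and the highest aged value equalled the lowest young value, so the ages touched at 1 point. The log2 change was -0.43 (SE 0.14, 95% interval -0.71 to -0.15), with an unadjusted limma p of 0.00405 and an adjusted one of 0.0975. An unadjusted p under 0.05 with a lower level in aged muscle was found for 7.26% of the 482 miRNAs. The adjusted limma p passed 0.05 with quantile normalization (0.0399) and with median-of-ratios scaling (0.0435). In pooled reads the difference was -0.41 between the deepest libraries and -0.36 without them.

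miR-145a-3p, the partner strand, ran from 7434 over a median of 10853 to 18433 FPKM in young libraries and from 11268 over a median of 14116 to 17682 FPKM in aged ones. Each of the 6 aged values exceeded the young median, but the range of the young libraries enclosed that of the aged ones. Its log2 change was 0.31 (SE 0.18, 95% interval -0.07 to 0.69) with a limma adjusted p of 0.494. It was 0.18 without young replicate 6 and 0.44 without young replicate 1, the ends of the range with 1 library left out. The young libraries were spread over an SD of 0.52 log2 units, against 0.22 in the aged ones, with replicates 1 and 2 highest and replicate 6 lowest. The pooled log2 change of 0.66 rested on the deepest libraries, since without them it was 0.05.

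miR-143-3p ran from 3886392 over a median of 5093192 to 5849979 FPKM in young libraries and from 4784710 over a median of 5441986 to 6098403 FPKM in aged ones. Of the aged libraries 2 lay above the highest young one and 0 below the lowest. Its log2 change was 0.17 (SE 0.15, limma adjusted p = 0.679), with a 95% interval of -0.14 to 0.47. Without young replicate 5 it was 0.10. Without the deepest libraries the pooled log2 change was 0.03, and between them it was 0.53.

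Ratios within a library compare the members directly, and a scaling error of that library largely cancels in them. The pseudocount keeps this cancelling incomplete, most of all for the low levels of miR-143-5p. The 6 ratios among the 4 members were each tested by a two-sided exact permutation test over libraries, and the adjusted values below are over these 6. Of the 6, 5 differed between the ages with an adjusted p under 0.05. The exception was miR-145a-3p to miR-143-3p, the only pair of 3p strands. The 6 ratios share their 4 members, so these are not 5 separate results, and no share over other pairs of miRNAs was computed. Those with miR-143-5p hold the strand that the study had selected on these same libraries. By exact permutation over 130 hairpins, 0 arm ratios had an adjusted p under 0.05 (0.0703 for miR-143 and 0.201 for miR-145a).

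The ratio of miR-143-5p to miR-143-3p ran from -12.7 over a median of -11.96 to -11.3 on the log2 scale in young libraries, and from -13.7 over a median of -13.0 to -12.7 in aged ones. The level of the 3p strand was thus 3853-fold higher in young and 9204-fold higher in aged muscle, and the ages did not overlap. Such a separation towards the 3p strand was found for 2.31% of the 130 hairpins with both strands above 0 in at least 5 libraries. The log2 change was -1.26 (SE 0.24, limma adjusted p = 0.0307 over the 130 hairpins). Of these hairpins 0.769%, which is miR-143 alone, were called, and 13.1% had an unadjusted p under 0.05. The exact permutation p of 0.00216 was the smallest that 6 libraries against 6 can give. Leaving out a single library kept the limma call without young replicate 1, 4 or 6 or aged replicate 1 and lost it without any other, with limma adjusted p from 0.00730 to 0.0933 and log2 changes from -1.40 to -1.13. This ratio rests on the few reads of the 5p strand given above.

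The ratio of miR-145a-5p to miR-145a-3p ran from -0.66 over a median of 0.07 to 0.80 on the log2 scale in young libraries, so either strand could lead: the 5p strand did in 3 of them and the 3p strand in 3. In aged libraries it ran from -0.75 over a median of -0.71 to -0.19, and the 3p strand led in all 6. Of the aged libraries 4 lay below every young one and 2 within the young range. This was a log2 change of -0.74 (SE 0.27), with an exact permutation p of 0.0216 (adjusted 0.0260 over the 6 ratios). Over the 130 hairpins the limma adjusted p was 0.210. Without both deepest libraries the adjusted exact permutation p was 0.0667.

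**Figure D3:**
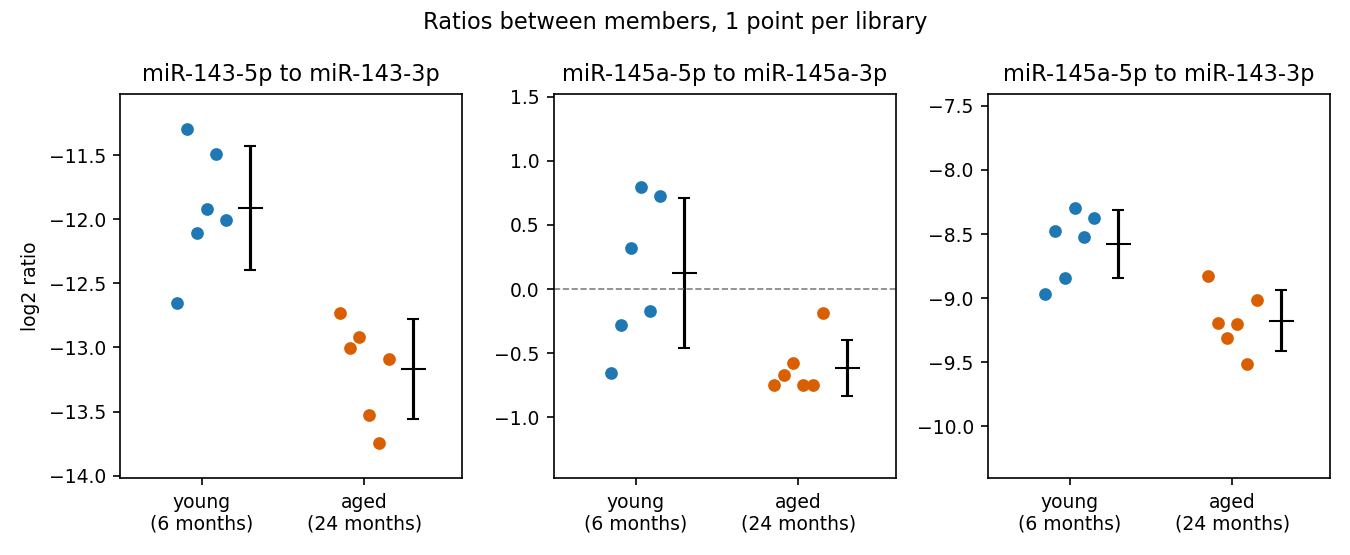
Log2 ratios between members, 1 point per library, young in blue and aged in orange, with mean and SD (n = 6 per age) as black bars. The left and middle panels show 5p to 3p of each hairpin and the right panel miR-145a-5p to miR-143-3p, and the dashed line marks equal levels. The aged points of miR-143 lie below all young ones, and all 6 aged points of miR-145a lie below the line of equal levels.

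Across the hairpins, miR-145a-5p was lower relative to miR-143-3p in aged muscle. The log2 ratio of miR-145a-5p to miR-143-3p ran from -8.96 over a median of -8.50 to -8.30 in young libraries and from -9.51 over a median of -9.20 to -8.82 in aged ones. Of the aged libraries 5 lay below every young one. The ratio fell by 0.60 on the log2 scale (exact permutation p = 0.00649, adjusted 0.0130 over the 6 ratios), and with each library left out in turn it ran from -0.67 to -0.53 with adjusted exact permutation p from 0.00974 to 0.0260. Both of these members had at least 22 reads in every library.

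The ratio of both 5p strands, miR-145a-5p to miR-143-5p, rose by 0.66 log2 units (exact permutation p = 0.00866, adjusted 0.0130), as the lower mean of miR-143-5p was the larger difference. All 3 ratios with miR-143-5p came nearer 0 at a pseudocount of 482 FPKM, and this one lost its call there, with a log2 change of 0.31 and an adjusted exact permutation p of 0.0571. The change of miR-143-5p to miR-143-3p was then -0.89 and that of miR-145a-3p to miR-143-5p 1.02, both with adjusted exact permutation p of 0.0173. The ratio of miR-145a-3p to miR-143-5p rose by 1.39 (exact permutation p = 0.00649, adjusted 0.0130). The ratio of both 3p strands, miR-145a-3p to miR-143-3p, changed by 0.14 (exact permutation p = 0.532), from -8.70 ± 0.460 to -8.56 ± 0.279 (SD, n = 6 each). This value moved with single libraries, to 0.04 without aged replicate 1, 0.05 without young replicate 3, 0.06 without young replicate 4 or 6, 0.21 without young replicate 5, 0.22 without young replicate 1 and 0.24 without young replicate 2. Young libraries fell into 2 ranges for this ratio. Replicates 1, 2 and 5 were at -8.31, -8.20 and -8.35, and replicates 3, 4 and 6 at -9.16, -9.09 and -9.10. The aged libraries ran from -8.82 to -8.08.

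Against all 130 hairpins, miR-143 was the one most weighted to its 3p strand, with a mean log2 ratio of 5p to 3p of -12.5 over the 12 libraries. The hairpins next to it were miR-22 at -10.2 and miR-27b at -9.93. miR-145a was near even at -0.24 and ranked 54th from the 3p end, between miR-136 (-0.33) and miR-3107 (-0.17). The 3p strand led in 59 of the 130. The fitted change of the ratio was below 0 for 67 of the 130 hairpins, and the median change was -0.01. miR-3107 is an opposite-strand copy of miR-486, so its values are uncertain where reads could fall to either. The other neighbour, miR-136, had the mirror image of the ratio of miR-3071 (-0.33 and 0.33, with changes of 0.38 and -0.38). These hairpins are thus not separate measurements among the 130. The within-age SD of the log2 ratio was 0.44 for both hairpins of the cluster, against a median of 0.90 over the 130, which were not matched on level.

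**Figure D4:**
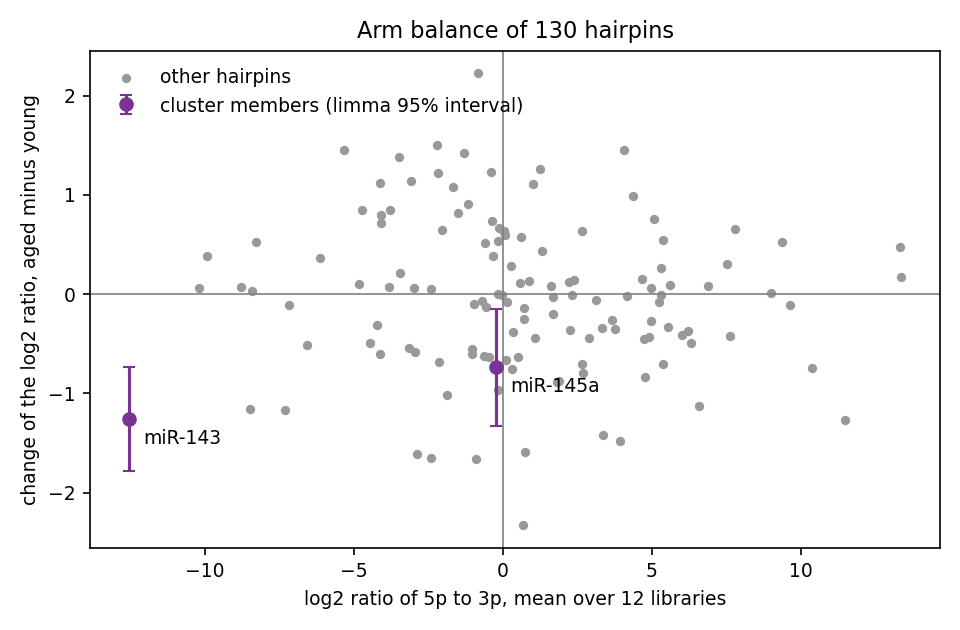
Change of the log2 ratio of 5p to 3p (aged minus young, vertical axis) against its mean over the 12 libraries (horizontal axis) for 130 hairpins in grey, with miR-143 and miR-145a in purple and limma 95% intervals. miR-143 is the leftmost point, at -12.5 with a change of -1.26, and miR-145a sits near even at -0.24 with a change of -0.74.

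miR-22 and miR-27b, the hairpins next to miR-143 in arm balance, had changes nearer 0, and the difference from miR-143 was not tested. Farther along, 2 hairpins had a fitted fall close in size to that of miR-143, though neither was called. miR-101a, ranked 5th from the 3p end, changed by -1.16 (limma adjusted p = 0.323). miR-29a, ranked 8th, also changed by -1.16 (limma adjusted p = 0.425). The others down to that rank, miR-127, miR-133a and miR-27a, changed by 0.08, 0.03 and 0.53. miR-22 is made in muscle and heart, and miR-27b is an inhibitor of Pax3 in muscle precursors. For miR-22 the 5p strand shifted against the 3p strand by 0.06 log2 units (SE 0.19, adjusted p by limma 0.904), and for miR-27b by 0.39 (SE 0.25, adjusted p by limma 0.510). In young muscle miR-22-3p was at 4764765 ± 1218813 FPKM (SD, n = 6), beside 4908544 ± 763186 FPKM for miR-143-3p, and miR-22-5p was at 4075 ± 1329 FPKM. Their strands are shown 5′ to 3′ as examples of kept and degraded partners, from RefSeq (GRCm38.p6), with the seed (bases 2 to 8) in capitals.
miR-22-5p: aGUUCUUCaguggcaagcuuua
miR-22-3p: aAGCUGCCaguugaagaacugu
miR-27b-5p: aGAGCUUAgcugauuggugaac
miR-27b-3p: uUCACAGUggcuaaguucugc

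Members were also compared by how they varied from library to library. All 6 pairs were tested over the 12 libraries and within each age. Because the ages do not overlap for miR-143-5p, its correlations over all 12 libraries also carry the difference between the ages. Of the 6, only that of miR-143-5p with miR-145a-5p passed (Pearson's r = 0.80, permutation p = 0.00131, adjusted 0.00786). Its r was 0.43 within young and 0.53 within aged libraries. The other correlations of miR-143-5p had adjusted permutation p of 0.293 (with miR-143-3p) and 0.472 (with miR-145a-3p). Of the 12 correlations within an age (6 pairs, n = 6 each), 1 had an unadjusted exact permutation p under 0.05, that of miR-143-3p with miR-145a-5p in aged libraries (Pearson's r = -0.83, exact permutation p = 0.0417, Spearman's rho = -0.83, exact permutation p = 0.0583). Its adjusted p over the 12 was 0.50. Without the 2 libraries farthest from the median of miR-143-3p, r was -0.29, but this leaves few libraries over a narrower range. Over all 12 libraries, r was -0.24 for miR-143-3p with miR-145a-5p, 0.44 for miR-143-3p with miR-145a-3p and -0.28 for both strands of miR-145a (rho -0.44, 0.25 and -0.18). Permutation p were 0.460, 0.147 and 0.380 for r and 0.151, 0.430 and 0.567 for rho, and adjusted over 6 pairs 0.472, 0.293 and 0.472 for r and 0.301, 0.549 and 0.567 for rho. Without the 2 libraries farthest from the median these r were -0.33, 0.07 and -0.40. None of the 12 correlations within an age passed 0.05 after adjustment, and 1 did before it.

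The miRNAs whose log2 levels followed miR-143-3p most closely over the 12 libraries, among the other 215 above 0 in every library, were miR-322-3p (Pearson's r = 0.60), miR-221-3p (0.56), miR-10a-5p (0.54), miR-378a-5p (0.53) and miR-192-5p (0.49). Those closest to miR-145a-5p were miR-186-5p (0.83), its cluster mate miR-143-5p (0.80, with 0.43 within young and 0.53 within aged libraries), miR-411-5p (0.75), miR-127-3p (0.74) and miR-872-3p (0.73). These are descriptions, chosen as the highest of many, over points that share library depth and age. The 5 miRNAs nearest to miR-145a-5p had fitted log2 changes from -1.09 to -0.34, and 2 of them, miR-143-5p and miR-127-3p, passed the limma test. Their r ran from 0.16 to 0.60 within the young and from 0.38 to 0.73 within the aged libraries. Mature sequences were found for 4 of the 5 alike to each (RefSeq, GRCm38.p6), and the others, miR-378a-5p and miR-143-5p, are named only. The sequences are shown 5′ to 3′ with the seed (bases 2 to 8) in capitals. Among these 8, 0 seeds were shared with each other, and they were not compared with the seeds of the members.
Alike to miR-143-3p:
miR-322-3p: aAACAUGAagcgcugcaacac
miR-221-3p: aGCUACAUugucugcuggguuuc
miR-10a-5p: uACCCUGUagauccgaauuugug
miR-192-5p: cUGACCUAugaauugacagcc
Alike to miR-145a-5p:
miR-186-5p: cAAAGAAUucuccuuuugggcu
miR-411-5p: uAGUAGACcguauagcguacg
miR-127-3p: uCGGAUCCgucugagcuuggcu
miR-872-3p: uGAACUAUugcaguagccuccu

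Other miRNAs known to act on the state of smooth muscle cells were read beside the cluster. Of 12 such miRNAs, 1 was called higher in aged muscle by limma, 0 lower, and 11 did not pass the test, with a median log2 change of 0.18. Over all 482 miRNAs 0.622% were called higher. The one called was miR-146a-5p, a brake on inflammatory signalling, whose level rose 1.27 log2 units (adjusted p by limma 0.0497). miR-204-5p, described in vascular smooth muscle, had a log2 change of 0.43 (limma adjusted p = 0.196). miR-21a-5p, which is raised in injured vessels, had 0.08, miR-221-3p, which favours smooth muscle growth, had 0.27, and miR-26a-5p had 0.04 (limma adjusted p from 0.583 to 0.949). The change was below 0 for 2 of the 12, miR-222-3p, the cluster mate of miR-221-3p, at -0.95 (limma adjusted p = 0.461) and miR-133a-3p at -0.17 (limma adjusted p = 0.679).

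Lists for other cell types of the tissue, which share some miRNAs with each other, came next, and each listed miRNA was above 0 in at least 7 libraries. None of the 7 endothelial miRNAs was called by limma (median log2 change -0.02), and the vessel lining marker miR-126a-3p was at 37304 ± 6552 FPKM in young and 37887 ± 2538 FPKM in aged muscle (SD, n = 6 each; log2 change 0.04, limma adjusted p = 0.944). None of the 5 fibroblast miRNAs was called (median log2 change 0.07), and their summed level ran from 33853 to 51570 FPKM in young and from 33362 to 57605 FPKM in aged libraries. None of the 7 blood cell miRNAs was called (median log2 change 0.14), and their sum ran from 17634 to 25844 FPKM in young and from 14962 to 35411 FPKM in aged libraries. At an unadjusted limma p under 0.05 these 3 lists held 0, 0 and 1 miRNAs, against 62 of all 482 tested. The last was the red cell miRNA miR-144-3p, which changed by -0.77 log2 units. In the skeletal muscle list of 7, miR-206-3p, which rises in regenerating fibres, was called higher (log2 change 1.54, limma adjusted p = 0.0296). For comparison, 2.9% of the 482 were called in either direction and 0.622% as higher. The summed levels of the endothelial, fibroblast, blood cell and skeletal muscle lists overlapped between the ages, and their part in the changes of miR-143-5p and of the ratios was not tested. In young muscle miR-10b-5p alone gave 6059435 of the mean 6595238 FPKM of the endothelial list. The smooth muscle sum overlapped as well, with all 6 aged libraries below the young median. In young muscle miR-133a-3p, also a fibre miRNA, gave 5367290 of its mean 8197617 FPKM.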

How the data were processed

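Small RNA of gastrocnemius muscle was sequenced on an Illumina instrument, 1 library per mouse. The authors trimmed adaptors, mapped reads to mm10 with BWA and deposited the log2 of FPKM for mature miRNAs of miRBase 20, with 0 for no read. The labels' tool list names TopHat2 instead. How strand and multi-mapping reads were handled is not given in the sources used here. The mirrored mean arm ratios of miR-136 and miR-3071 (-0.33 and 0.33) show that the same reads were counted for both hairpins.

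Here the log was undone and rows of the same miRNA (77 miRNAs with several copies) were summed, 2035 rows giving 1900 miRNAs. No column was left unused, and 76.4% of values were 0. Whole reads were estimated from steps of the low values: among 1603 miRNAs with a RefSeq length there were 2857 values below 20 reads, of which 99.0% came within 0.1 of a whole number. Members have no length there, so 22 nucleotides were assumed, and 21 for miR-143-5p from its own steps. Estimated mapped reads ran from 120185 to 7750249. No libraries were identical (0 pairs).

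Levels were tested as log2(FPKM + 48.2) by limma 3.58.1 with trend (R 4.3.3) and Benjamini-Hochberg adjustment, on 482 miRNAs above 0 in at least 5 of 12 libraries. The pseudocount was the median smallest value above 0, and folds of low miRNAs are understated by it. Arm ratios were tested likewise over 130 hairpins. The 6 member ratios were tested by exact permutation and correlations by permutation (exact within an age, otherwise 100000 resamples), with SciPy 1.17.1. The fits were tested on simulated data. Alternatives covered pseudocount, filter, scaling, test, depth covariate, replicate block and left-out libraries. The text names the members, miR-145b, the 5 miRNAs most correlated with miR-143-3p and with miR-145a-5p, and listed context miRNAs. It also names neighbouring hairpins in arm ratio and others among those most weighted to the 3p strand. Members and lists were chosen with earlier results of these data known.

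Same-numbered young and aged libraries deviated from their age means with correlations of -0.19 to 0.13, so the numbers were not taken to pair mice. Sequences of the members are not reported here.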

Additional observations from a re-analysis of the deposited data

Results flagged for a closer look

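In 22 groups of 6 libraries, 2 held a library far from the others by Dixon's 95% criterion, where chance gives about 1.1. For the log2 ratio of miR-145a-5p to miR-145a-3p, aged replicate 6 was at -0.19, and the other aged libraries ran from -0.75 to -0.58. For the log2 ratio of miR-145a-3p to miR-143-5p, young replicate 1 was at 4.35, and the other young libraries ran from 2.83 to 3.13. Without that young library the change of the latter ratio was 1.62, against 1.39 with it.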

How the results depend on the processing

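No result changed direction. For miR-143-5p, limma lost the call with a pseudocount of 1 FPKM (log2 change -1.16, adjusted p 0.0902), depth as a covariate (-1.12, 0.0753), voom on estimated reads (-0.92, 0.0552) and both deepest libraries left out (-1.23, 0.0655), as did the exact permutation test (-1.09, 0.0803). Pooled reads, added after seeing the data, gave -0.66 for it, 0.37 for miR-143-3p and 0.66 for miR-145a-3p. miR-145a-5p passed with quantile normalization (-0.42) and median-of-ratios scaling (-0.46). The miR-143 arm ratio lost its call with a pseudocount of 1 FPKM (-1.32, 0.0614), no filter (-1.26, 0.0823), limma without trend (-1.26, 0.0546), exact permutation (-1.26, 0.0703) and both deepest libraries left out (-1.33, 0.104). miR-145a-5p to miR-143-5p missed 0.05 at 10 times the pseudocount (0.31). The cause was not tested.

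The replicate numbers did not pair the libraries: 1 of 6 pairs correlated above 0.1, and 0 libraries correlated best with their own number. With the replicate block miR-143-5p kept a log2 change of -1.09 (limma adjusted p 0.0961), the miR-143 arm ratio was -1.26 (0.0869), 14 miRNAs were called as without the block, and 2 arm ratios were called against 1.

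The 14 miRNAs called became 6 with a pseudocount of 1 FPKM, 7 with no filter, 8 with a filter on the mean, 8 with depth as a covariate, 7 with values floored at 1 read of the shallowest library, and 0 by exact permutation (66 unadjusted, 14 by limma). The 1 arm ratio called became 3 at 10 times the pseudocount and 2 with the floor. It became 0 by limma with a pseudocount of 1 FPKM (15 unadjusted), no filter (24), no trend (17) and both deepest libraries left out (7), and 0 by exact permutation (19).

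With each library left out in turn, log2 changes ran from -1.18 to -0.96 for miR-143-5p and from -1.40 to -1.13 for the miR-143 arm ratio. The number of miRNAs called ran from 6 (without young replicate 3) to 16 (without young replicate 6), and that of arm ratios from 0 to 4. Depth limits miR-143-5p most, at 1 to 130 reads per library.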
